A study of Mus musculus with 9 samples.

Results

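The genes described here encode the machinery of macroautophagy, the process in which a double membrane closes around cytoplasm or organelles and delivers them to the lysosome. They were chosen by name. All 45 named genes had a row among the 24228 gene rows used, in a table of transcript levels from mouse oocytes that were fully grown and still held the germinal vesicle. The study asked how deletion of Mtor in the oocyte alters that transcript pool. The strain was C57BL/6, and all females received 5 IU of PMSG, a gonadotropin, 46 h before the oocytes were collected from large antral follicles. Of the 3 groups, with 3 libraries each, WT was wild type, MG was the oocyte-conditional Mtor knockout made with Gdf9-Cre, and MZ was the one made with Zp3-Cre.

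The Gdf9 and Zp3 promoters that drive Cre are both active in oocytes, that of Gdf9 from an earlier follicle stage. The series design gives an age of 23 days and the sample labels give 6 months. The sources used here do not give how many oocytes or females stand behind a library, or whether the libraries of a group came from different females, so p-values reflect only how far these libraries differ, and that spread can be technical. Values are FPKM, fragment numbers scaled to transcript length and to the mapped fragments of the library.

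Autophagy starts when a kinase complex of Ulk1 or Ulk2 with Atg13, Rb1cc1 (FIP200) and Atg101 is active. mTORC1 holds this complex in check by phosphorylation, and it also keeps the transcription factors Tfeb and Tfe3, which drive autophagy and lysosome genes, in the cytoplasm. Downstream, a phosphatidylinositol 3-kinase complex marks the membrane, Atg9 and Atg2 supply lipid, and a ubiquitin-like conjugation system attaches LC3 and GABARAP proteins to the membrane. Cargo receptors bind these proteins, and syntaxin 17 lets the closed autophagosome fuse with the lysosome. Oocytes carry a large store of transcripts that are held back from translation, so a transcript level in these cells is not a measure of autophagic activity.

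Tfeb and Tfe3 recognise the E-box CACGTG, most strongly within the longer CLEAR site, which has GT before the E-box and AC after it. Promoter sequences (RefSeq, GRCm38.p6) were matched for 37 of the 45 genes, and the 250 bases before each start were searched on both strands. CLEAR, which contains the E-box, was found in 0 of the 37, against 0.27% of all 27025 genes with a promoter. CACGTG was found in 4 of the 37 (10.8%), namely Atg3, Atg5, Atg7 and Bnip3, against 6.86% of all genes. The forkhead site GTAAACA was found in 0 of the 37, against 3.54% of all genes. The E-box windows are shown because Atg3, Atg5 and Atg7 belong to the conjugation system described next, with Atg5 at its top and Atg3 and Atg7 among its low members. Each is printed 5′ to 3′ on the strand of the gene, with the E-box in capitals. The start that the promoter table lists for Atg7 lies inside the GENCODE locus of the gene, downstream of its first base, so that window is upstream of an internal start.
Atg3, upstream, chr16:45158723-45158752, plus strand: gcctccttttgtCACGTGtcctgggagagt
Atg3, nearer the start, chr16:45158746-45158775, plus strand: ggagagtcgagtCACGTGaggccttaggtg
Atg5, chr10:44268313-44268338, plus strand: cggagcgcttgcCACGTGgtcttggt
Atg7, chr6:114670952-114670981, plus strand: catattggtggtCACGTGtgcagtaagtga
Bnip3, chr7:138909597-138909626, minus strand: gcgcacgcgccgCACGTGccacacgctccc

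Facts of the whole data set bear on precision. For a 1 kb transcript, a single fragment came to 1.31 FPKM in MG 3, the least, and 2.36 FPKM in MZ 1, the most, so a member at a few FPKM rests on few fragments. FPKM values summed to between 428329 (MG 3) and 718684 (WT 1) per library, and the 3 MG sums lay below all others. Mtor itself stood at 2.95 to 3.33 FPKM in WT libraries, 4.64 to 6.00 in MG and 4.39 to 6.55 in MZ. A whole-gene FPKM also counts exons outside a deleted part and so is no check of the deletion. MG and MZ here mean the libraries labelled so. Summed over 11 oocyte markers, levels were 20140 to 23540 FPKM in WT libraries, 10070 to 24160 in MG and 24530 to 25720 in MZ, with the lowest Gdf9 value, 7327, in MG 3. The 16 granulosa and cumulus markers summed to 20.3 to 33.6 FPKM in WT libraries, 22.04 to 39.4 in MG and 23.95 to 28.9 in MZ, with Foxl2 and Amhr2 at 0 throughout. The 5 blood and immune markers spread more widely, at 40.95 to 51.7 FPKM in WT, 25.6 to 136.5 in MG and 18.5 to 167.7 in MZ. The 6 theca and stroma markers, with Lhcgr and Acta2 at 0, summed to at most 20.6 FPKM in any library, and 2 endothelial markers to at most 22.55. Their part in the results was not tested. In bulk libraries such as these, a change in the number of cells of a type and a change in RNA per cell cannot be told apart.

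Autophagy transcripts covered a wide range in wild-type oocytes. Mean levels were at least 100 FPKM for 2 of the 45 genes (Atg5 and Atg12), from 20 to under 100 for 16, from 5 to under 20 for 8, from 1 to under 5 for 11, and under 1 for 8. In all, 41 rows had at least 1 FPKM in at least 3 of the 9 libraries and were tested, and the other 4 were not (Atg9b, Atg16l2, Atg4d and Tecpr1). Of all rows 44.6% were tested, against 91.1% of these. The median WT level was 9.37 FPKM over the 41 tested members and 6.37 FPKM over all 10801 tested genes.

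**Figure D1:**
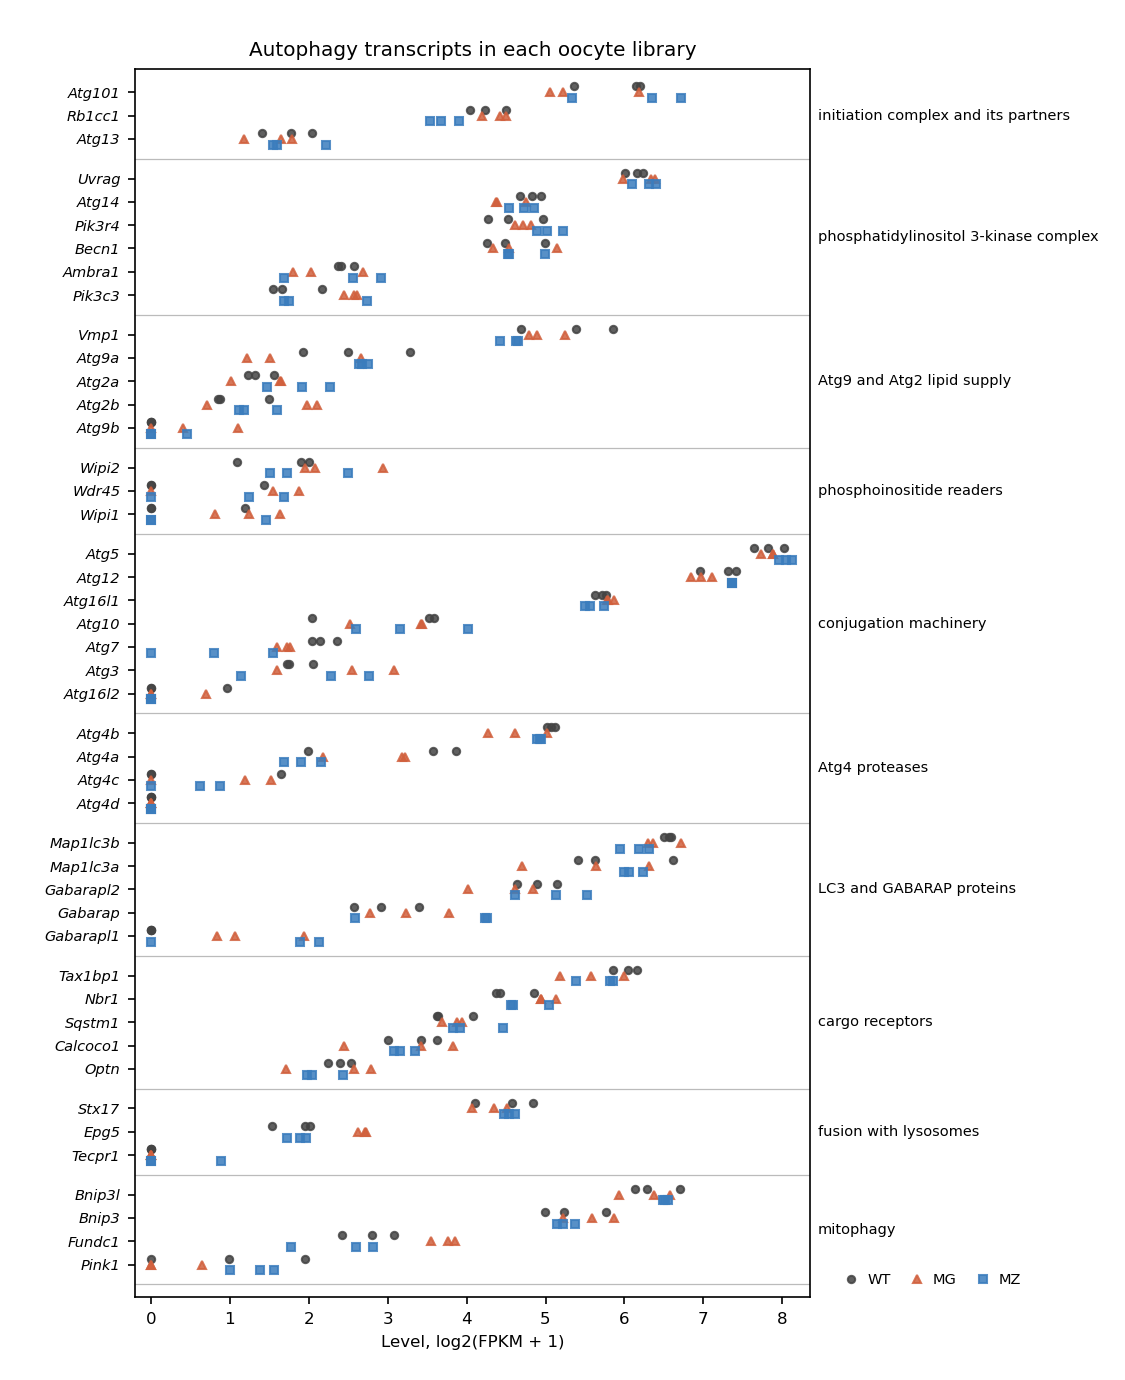
Level of each autophagy gene on the log2(FPKM + 1) scale in every library, by role, with 3 libraries each for WT (circles), MG (triangles) and MZ (squares). Atg5 and Atg12 stand highest and 8 genes lie near 0 in WT, and for most genes the libraries of the 3 groups intermix.

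Of the initiation complex, Atg101, which stabilises Atg13, was the most abundant. It stood at 69.8, 40.2 and 72.4 FPKM in WT libraries, 71.8, 36.2 and 32.4 in MG, and 104.5, 80.2 and 39.2 in MZ. The groups overlapped, and each group held a library near 40 FPKM or below. Rb1cc1, the scaffold of the complex, had a WT mean of 18.35 ± 3.15 FPKM, and Atg13, the adaptor to the kinase, 2.39 ± 0.74 (SD, n = 3). In all 9 libraries Atg101 exceeded Rb1cc1 and Rb1cc1 exceeded Atg13.

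Of the phosphatidylinositol 3-kinase complex, Uvrag, which joins the form of the complex at later endosomal steps, stood highest. Its values were 63.1, 74.2 and 70.3 FPKM in WT libraries, 62.3, 83.0 and 79.8 in MG, and 78.5, 67.3 and 83.5 in MZ. The groups overlapped throughout. Atg14, which directs the complex to autophagosome formation, had a WT mean of 27.3 ± 2.70 FPKM, and Uvrag exceeded it in all 9 libraries. Atg14, Pik3r4 (23.5 ± 6.12), the regulatory subunit, and Becn1 (23.5 ± 6.53), the beclin subunit, overlapped between their WT libraries and so have no clear order. Pik3c3, the catalytic subunit, stood at only 2.53 ± 0.85 FPKM in WT libraries, below Ambra1 (4.50 ± 0.41), a regulator of Becn1. The locus of Becn1 overlaps that of Cntd1, and reads of the 2 rows may be shared.

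The conjugation system was split. Atg5, which is joined to Atg12, was the most abundant of the 45 genes, at 258.9, 199.1 and 225.0 FPKM in WT libraries, 211.9, 234.9 and 235.5 in MG, and 248.0, 276.8 and 263.6 in MZ. Its WT mean was above 95.8% of all tested genes. Atg12, its ubiquitin-like partner, had a WT mean of 150.1 ± 23.6 FPKM, and Atg16l1, which completes the complex, 51.1 ± 2.37 (SD, n = 3). The enzymes that carry out the reaction were low: Atg10, the E2 for Atg12, at 8.20 ± 4.42 FPKM, Atg7, the E1, at 3.56 ± 0.52, and Atg3, the E2 for LC3, at 2.61 ± 0.47 in WT. In each of the 9 libraries the lowest of Atg5, Atg12 and Atg16l1 exceeded the highest of Atg3, Atg7 and Atg10. The ratio of the 2 sums was between 20.6 (MZ 3) and 50.8 (MZ 1). Atg16l2, a paralog of Atg16l1, was above 0 in 2 libraries, at no more than 0.96 FPKM.

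Among the Atg4 proteases, which prepare LC3 for conjugation and release it again, Atg4b stood highest, with a WT mean of 32.6 ± 1.18 FPKM (SD, n = 3). Atg4c reached at most 2.13 FPKM and was at 0 in 4 libraries, and Atg4d stood at or near 0 everywhere. The locus of Atg4d overlaps Kri1. The row named Atg4a carries a locus on chromosome 3 (103575281 to 103646068, mm10, the exact start base being uncertain). GENCODE M21 instead places Atg4a on the X chromosome (140956907 to 141164270). The chromosome 3 locus holds Atg4a-ps (103643954 to 103646068). Values under Atg4a are therefore those of the row and not of a known level of the gene. For the other 44 members the locus of the row overlaps the annotated gene.

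Of the ubiquitin-like proteins placed on the autophagosome, Map1lc3b (LC3B) and Map1lc3a (LC3A) were the most abundant in WT, at 92.7 ± 3.09 and 62.2 ± 30.2 FPKM (SD, n = 3), and their WT libraries overlapped. Gabarapl2 (29.03 ± 5.24 FPKM) followed, and then Gabarap (7.02 ± 2.33). Map1lc3a exceeded Gabarapl2, and Gabarapl2 exceeded Gabarap, in all 9 libraries. Among cargo receptors the order in all 9 libraries was Tax1bp1, Nbr1, Sqstm1 (p62), Calcoco1 and Optn, with WT means of 64.07, 22.7, 12.9, 9.37 and 4.26 FPKM, although Sqstm1 and Calcoco1 overlapped between their WT libraries.

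Genes of lipid supply and of the phosphoinositide readers were low apart from Vmp1. Atg9a, the lipid scramblase of the seed vesicles, had a WT mean of 5.40 ± 3.04 FPKM, and Atg2a and Atg2b, lipid transfer proteins, 1.60 ± 0.32 and 1.15 ± 0.58 (SD, n = 3). Wipi2, which recruits Atg16l1 to the membrane, stood at 2.99, 2.74 and 1.13 FPKM in WT libraries, 2.88, 6.69 and 3.23 in MG, and 4.64, 1.85 and 2.30 in MZ, with overlap between all groups. Wipi1 and Wdr45 were each at 0 in 4 libraries. Stx17, the SNARE of the closed autophagosome, stood at 27.7, 16.3 and 22.8 FPKM in WT libraries, 19.4, 21.8 and 15.8 in MG, and 23.4, 22.3 and 21.3 in MZ. The groups overlapped, with WT the most spread and MZ the least. Bnip3l, an outer membrane receptor for mitophagy, led its group at 103.2, 69.4 and 76.7 FPKM in WT libraries, 94.4, 82.3 and 60.1 in MG, and 89.1, 92.6 and 90.0 in MZ, again with overlap, and Bnip3 followed at 40.2 ± 11.6 in WT.

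The groups were then compared with limma on log2(FPKM + 1), with all 9 libraries in 1 fit and p-values adjusted by Benjamini-Hochberg over the 10801 tested genes. None of the 41 tested members passed an adjusted p of 0.05 by limma in any of the comparisons, MG with WT, MZ with WT and MG with MZ in that order, where 0.343%, 0.037% and 0.13% of all tested genes passed. An unadjusted p under 0.05 was reached by 3, 5 and 4 members, against 17.7%, 6.3% and 17.6% of all tested genes, so that the members' shares were 7.32%, 12.2% and 9.76%. The first 2 counts include Gabarapl1, which passed the filter without any WT library. In the authors' deposited table q was under 0.05 for 0, 0 and 2 of the 41, against 4.13%, 0.787% and 9.05% of the tested genes. Many members at low levels, Fundc1 and Epg5 among them, carry the largest possible q there. That value can stand for a gene that Cuffdiff did not test, so these members may not be negative results. The 3 comparisons share libraries pairwise and are not independent of each other.

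**Figure D2:**
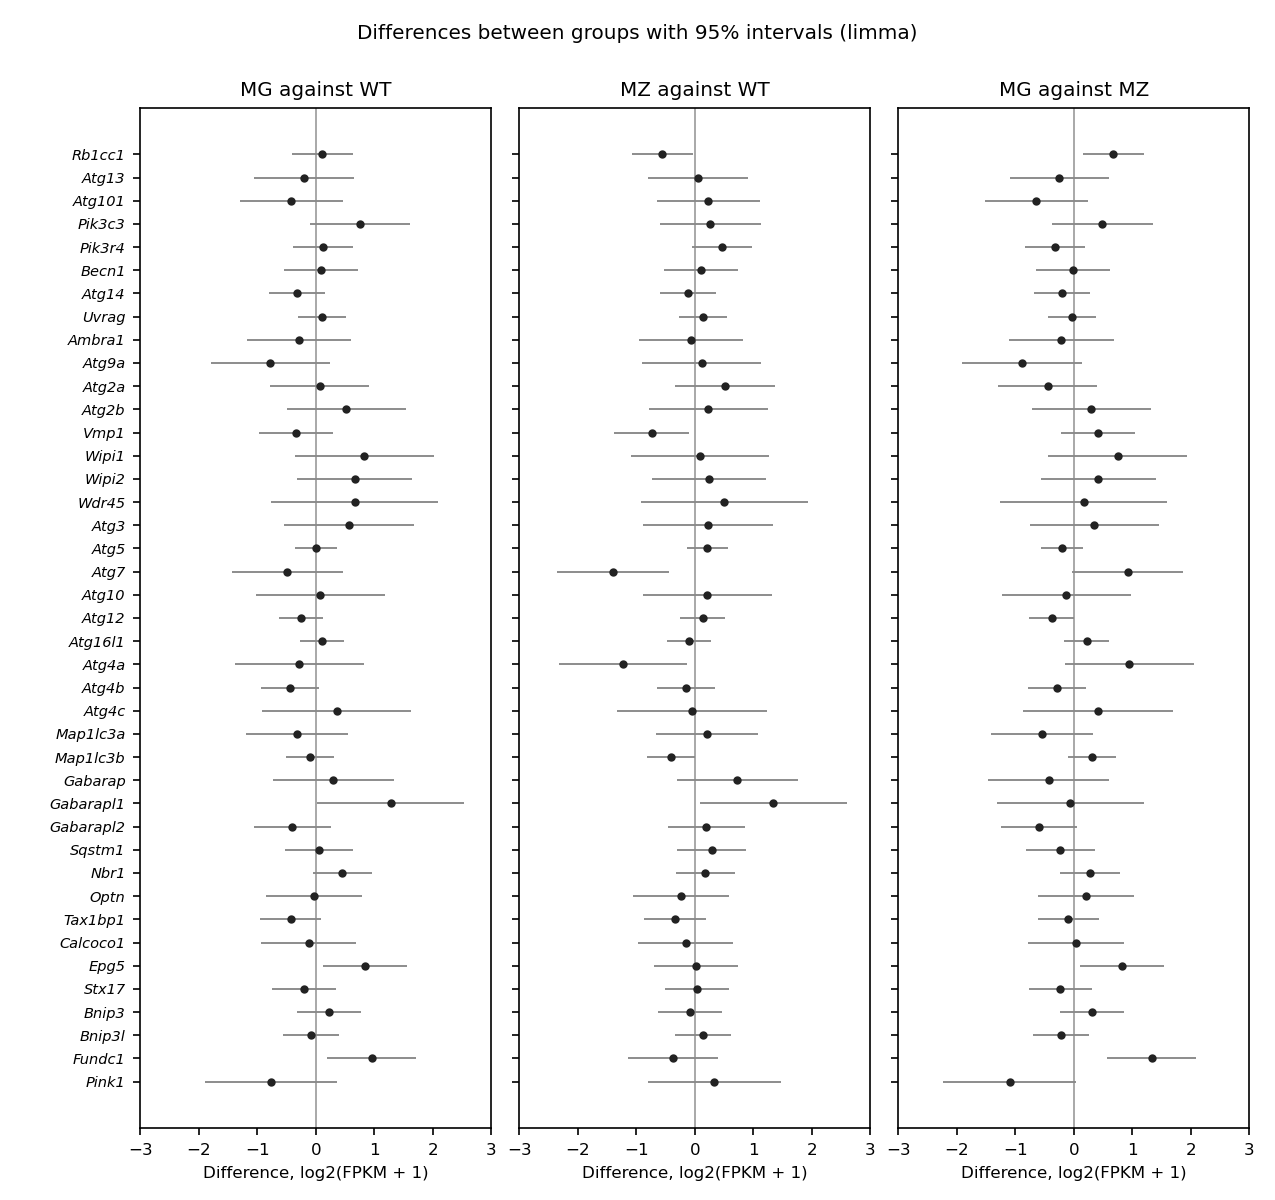
Difference between groups on the log2(FPKM + 1) scale for each of the 41 tested rows, with its 95% interval from limma (horizontal lines), in 3 panels, MG less WT, MZ less WT and MG less MZ. Points lie on both sides of 0 in each panel, with no adjusted p under 0.05. Gabarapl1 stood at 0 in WT, so its difference there has no size that can be read.

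Differences of the members as a whole were small. With all libraries brought to an equal FPKM total, the median of all tested genes moved. It became 0.36 in MG against WT and 0.39 in MG against MZ. Differences so obtained are given only beside printed differences of members named for a small p in the same comparison, where over 1.5 times larger or smaller. Other differences that involve MG are given without them and may move as much. The median log2 difference was 0.06 over the members and 0.04 over all tested genes for MG against WT, 0.12 and 0.01 for MZ against WT, and -0.03 and 0.04 for MG against MZ. Without WT 2 the medians of MZ against WT were 0.001 over the members and 0.013 over all tested genes. Positive differences were found for 22, 26 and 19 of the 41 members (53.7%, 63.4% and 46.3%), against 53.0%, 51.1% and 53.3% of all tested genes. By role, differences of both signs occurred within most groups. The exceptions in both comparisons with WT were the 3 phosphoinositide readers, all positive, with medians of 0.66 (MG) and 0.25 (MZ), of which Wipi1 and Wdr45 rest on at most 8 fragments in a group. In MZ against WT the 3 tested Atg4 rows were all negative and both tested fusion genes were positive, by no more than 0.03.

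**Figure D3:**
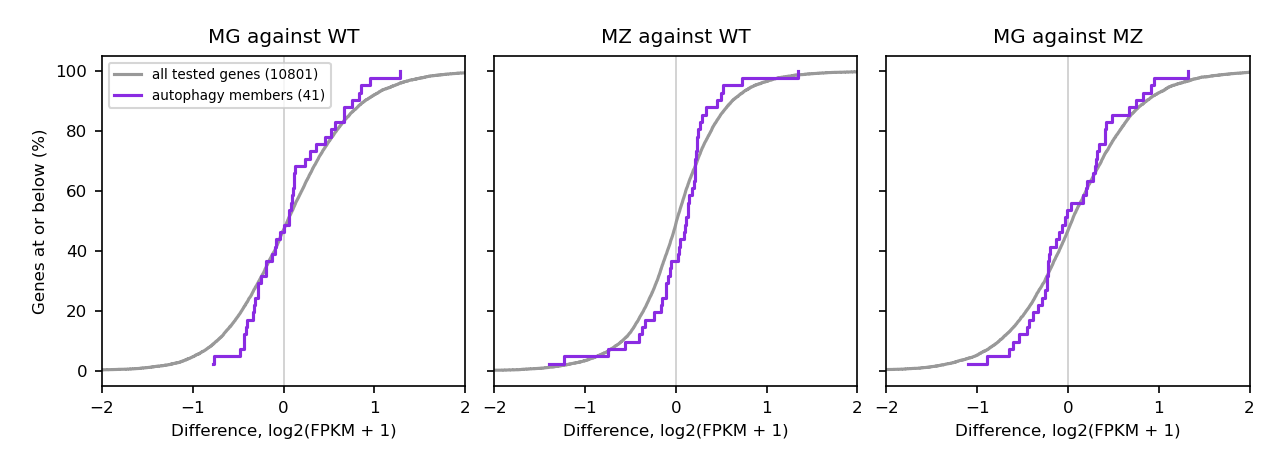
Share of genes (%) at or below each difference on the log2(FPKM + 1) scale, for the 41 tested members (stepped line) and all 10801 tested genes (smooth line), in the 3 comparisons. Medians of the members were 0.06, 0.12 and -0.03, and those of all genes 0.04, 0.01 and 0.04.

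Summed over the 45 genes, levels were 1331, 1110 and 1249 FPKM in WT libraries, 1206, 1145 and 1144 in MG, and 1267, 1257 and 1270 in MZ. The sums of MG lay within the range of WT. As a share of all FPKM, the same genes took 0.185%, 0.19% and 0.191% in the WT libraries, 0.218%, 0.223% and 0.267% in MG, and 0.187%, 0.186% and 0.193% in MZ. The MG shares lay above all others, and the highest, in MG 3, came with the lowest total. Each share is the sum divided by the FPKM total of its library, so the lower MG totals raise the MG shares by calculation. Why those totals were lower was not tested.

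In MG against WT the members with the smallest p were higher in MG. Fundc1, a mitophagy receptor of the outer mitochondrial membrane (X chromosome, 17556564 to 17572325, GRCm38), stood at 4.37, 5.98 and 7.43 FPKM in WT libraries, 12.6, 10.7 and 13.4 in MG, and 5.05, 2.43 and 6.04 in MZ. All 3 MG libraries lay above the 6 others, whose WT and MZ values overlapped. Its log2 difference was 0.95 ± 0.35 (SE, limma adjusted p = 0.195, 95% interval 0.19 to 1.72), and about 16 fragments in WT and 43 in MG lie behind it.

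Epg5, a tether that promotes fusion of autophagosomes with lysosomes (chromosome 18), stood at 2.88, 1.90 and 3.05 FPKM in WT libraries, 5.54, 5.15 and 5.61 in MG, and 2.91, 2.71 and 2.30 in MZ. The 3 MG libraries were close to each other and above the 6 others. The log2 difference of MG against WT was 0.85 ± 0.33 (SE, limma adjusted p = 0.216), with about 35 fragments in WT and 91 in MG. Nbr1, a cargo receptor that binds ubiquitin and LC3 (chromosome 11, 101552149 to 101581951), stood at 28.0, 20.5 and 19.7 FPKM in WT libraries, 29.8, 34.1 and 29.7 in MG, and 32.0, 23.0 and 22.7 in MZ. The MG libraries lay above WT but not above MZ, and the log2 difference from WT was 0.46 ± 0.23 (SE, limma adjusted p = 0.337). It was 0.83 with equal FPKM totals.

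Gabarapl1, a GABARAP paralog, had a listed value of 0 in all 3 WT libraries, at 2.83, 1.09 and 0.79 FPKM in MG, and at 0, 2.72 and 3.38 in MZ. These values rest on about 4 fragments in MG and 7 in MZ, and the row entered the test only through MG and MZ libraries. Its adjusted p by limma was 0.278 for MG and 0.762 for MZ. The locus overlaps 1700101I11Rik.

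Of the members lower in MG than in WT, Atg4b (chromosome 1, 93751500 to 93790610) had the smallest p and stood at 33.8, 32.6 and 31.4 FPKM in WT libraries, 23.4, 31.4 and 18.4 in MG, and 29.8, 29.6 and 28.6 in MZ. WT lay above MG by a narrow margin, as MG 2 nearly reached WT 3, and above MZ, and the log2 difference of MG from WT was -0.44 ± 0.22 (SE, limma adjusted p = 0.344). It was -0.26 without MG 3 and -0.06 with equal FPKM totals. Tax1bp1, a cargo receptor that binds ubiquitin, stood at 70.5, 56.8 and 64.9 FPKM in WT libraries, 35.5, 46.8 and 62.8 in MG, and 55.2, 40.7 and 56.6 in MZ. MG overlapped WT through MG 3, MZ did not, and the log2 difference from WT was -0.43 ± 0.24 for MG (SE, limma adjusted p = 0.382) and -0.34 ± 0.24 for MZ (SE, limma adjusted p = 0.855). The difference of MG was -0.23 without MG 1, -0.25 with quantile normalization and -0.05 with equal FPKM totals.

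Atg9a stood at 4.63, 2.82 and 8.75 FPKM in WT libraries, 5.34, 1.84 and 1.33 in MG, and 5.37, 5.73 and 5.21 in MZ. MG 1 lay with MZ and the other 2 MG libraries below all others. Pink1, the kinase that marks damaged mitochondria, stood at 0, 2.87 and 0.99 FPKM in WT libraries, at 0, 0 and 0.56 in MG, and at 1.01, 1.94 and 1.61 in MZ, with about 4, 1 and 6 fragments in all. On so few fragments a difference in Pink1 was not called (limma adjusted p = 0.476 for MG against WT and 0.296 for MG against MZ). Its locus overlaps Mir7019.

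Without overlap between the 3 MG and the 3 WT libraries were 8 of the 41 members (19.5%), 6 of them higher and 2 lower in MG. Over all tested genes 21.5% did not overlap, 11.6% higher and 9.89% lower. Beside Fundc1, Epg5, Nbr1, Gabarapl1 and Atg4b these were Pik3c3 and Atg16l1, higher in MG, and Atg7, lower. Mean levels of Pik3c3 were 2.53 ± 0.85 FPKM (WT) and 4.85 ± 0.37 (MG), and those of Atg16l1 51.1 ± 2.37 and 55.3 ± 1.70 (SD, n = 3 each). Gabarapl1 was tested only because of its MG and MZ libraries, so its place among the higher members is no sign of a direction. The other members with an unadjusted p under 0.05 were Fundc1 and Epg5, both higher in MG. Over all tested genes 8.43% met that rule as higher and 9.31% as lower.

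**Figure D4:**
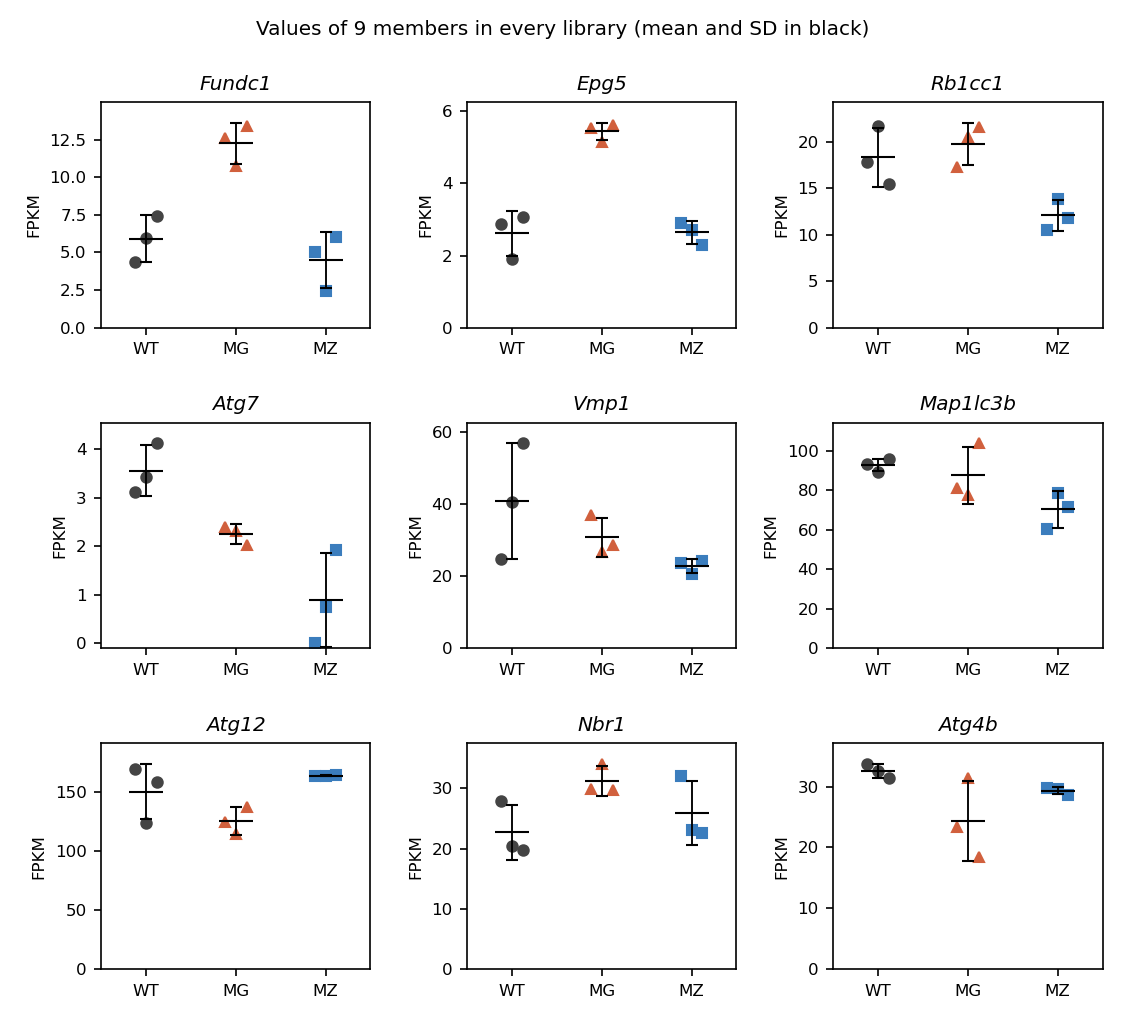
FPKM of 9 members in every library (circles WT, triangles MG, squares MZ), with the mean and SD of the 3 libraries of each group in black. For Fundc1 and Epg5 the 3 MG libraries lie above the 6 others, for Rb1cc1 the 3 MZ libraries lie below the 6 others, and for Atg7 the groups follow the order WT, MG, MZ without overlap.

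In MZ against WT the smallest p belonged to Atg7, the E1 enzyme of both conjugation reactions (chromosome 6, 114643097 to 114860614). It stood at 3.12, 3.42 and 4.13 FPKM in WT libraries, 2.40, 2.32 and 2.02 in MG, and 0, 0.75 and 1.92 in MZ. No MZ library reached an MG library and no MG library reached a WT library. The log2 difference of MZ from WT was -1.40 ± 0.43 (SE, limma adjusted p = 0.639, 95% interval -2.35 to -0.45), and that of MG from WT was -0.48 ± 0.43 (SE, limma adjusted p = 0.601). With a pseudocount of 0.1 the difference of MZ from WT was -2.71. Across the alternative fits, that of MG from WT ran from -0.687 to -0.203. About 19, 15 and 6 fragments in WT, MG and MZ lie behind these values, and the MZ 1 value of 0 may be a failed estimate.

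Vmp1, an endoplasmic reticulum protein needed to form autophagosomes, stood at 24.7, 40.7 and 57.0 FPKM in WT libraries, 37.0, 26.6 and 28.7 in MG, and 23.6, 20.5 and 24.1 in MZ. MZ lay just below WT 1, and WT itself spread more than 2-fold. The log2 difference of MZ from WT was -0.74 ± 0.29 (SE, limma adjusted p = 0.744), and -0.47 without WT 3. The locus of this row runs from 86583864 (exact base uncertain) to 87555823 on chromosome 11 and overlaps 15 other rows. The annotated gene ends at 86683836, so reads may be shared.

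Rb1cc1 (chromosome 1, 6206197 to 6276648) stood at 17.9, 21.7 and 15.5 FPKM in WT libraries, 17.3, 20.5 and 21.7 in MG, and 10.6, 13.9 and 11.8 in MZ. The 3 MZ libraries lay below the 6 others. The log2 difference of MZ from WT was -0.56 ± 0.24 (SE, limma adjusted p = 0.762). Map1lc3b (chromosome 8, 121590361 to 121598760) stood at 93.2, 89.4 and 95.5 FPKM in WT libraries, 81.2, 77.4 and 103.8 in MG, and 60.4, 78.5 and 71.7 in MZ. WT lay above MZ, MG overlapped both and met MZ through MZ 2 alone, and the log2 difference of MZ from WT was -0.40 ± 0.19 (SE, limma adjusted p = 0.785). The row named Atg4a stood at 2.99, 10.9 and 13.5 FPKM in WT libraries, 8.05, 3.55 and 8.36 in MG, and 3.45, 2.21 and 2.75 in MZ, where WT 1 lay among the MZ values.

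Members with the smallest p among those higher in MZ were Gabarapl1, Pik3r4, Gabarap and Atg2a. Pik3r4 stood at 30.2, 22.0 and 18.3 FPKM in WT libraries, 27.2, 25.3 and 23.4 in MG, and 31.5, 28.6 and 36.2 in MZ. WT 1 lay within the range of MZ, and the log2 difference from WT was 0.46 ± 0.23 (SE, limma adjusted p = 0.789), and 0.30 without WT 3. Gabarap stood at 6.57, 9.55 and 4.96 FPKM in WT libraries, 12.7, 5.84 and 8.42 in MG, and 5.01, 17.8 and 18.1 in MZ, so that MZ 1 lay with WT and the other 2 MZ libraries above all others. Atg2a stood at 1.49, 1.96 and 1.35 FPKM in WT libraries, 1.03, 2.13 and 2.12 in MG, and 2.77, 1.77 and 3.84 in MZ, with overlap.

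Without overlap between MZ and WT were 6 of the 41 members (14.6%), against 12.2% of all tested genes. All 6 were lower in MZ (Rb1cc1, Vmp1, Atg7, Atg4b, Map1lc3b and Tax1bp1), against 6.52% of all tested genes in that direction, and 0 were higher, against 5.67%. Of the 5 with an unadjusted p under 0.05, 4 were lower in MZ (Rb1cc1, Vmp1, Atg7 and the Atg4a row), against 3.62%. The remaining one was Gabarapl1, which was tested only because of the groups where it was above 0 and is not read against the 2.68% of all tested genes that were higher. The median over all members was positive in the same comparison (0.12, and 0.001 without WT 2), so these genes do not stand for the list.

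MG against MZ compares the 2 deletions directly. Fundc1 had the smallest p of any member in any of the 3 comparisons, with a log2 difference of 1.33 ± 0.35 (SE, limma adjusted p = 0.0917, 95% interval 0.56 to 2.09). For Rb1cc1 the difference was 0.67 ± 0.24 (SE, limma adjusted p = 0.173) and q was 0.0104 in the authors' deposited table, and with equal FPKM totals the difference was 1.08. For Epg5 it was 0.82 ± 0.33 (SE, limma adjusted p = 0.213), and for Atg7 0.92 ± 0.43 (SE, limma adjusted p = 0.3). The difference of Atg7 was 0.52 without MZ 1, where it is listed at 0, and 2.08 with a pseudocount of 0.1. Atg101 was the other member with q under 0.05 in the authors' deposited table (q = 0.0422), while its MG and MZ libraries overlapped. Its log2 difference by limma was -0.64 ± 0.40 (SE, adjusted p = 0.435), and ran from -1.045 to -0.219 across the alternative fits.

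Lower in MG than in MZ with the smallest p were Atg12, Pink1, Gabarapl2 and Atg9a. Atg12 stood at 168.8, 123.6 and 157.8 FPKM in WT libraries, 124.6, 113.9 and 137.4 in MG, and 163.1, 163.2 and 163.8 in MZ. The MZ libraries were nearly equal and above MG, WT overlapped both, and the log2 difference was -0.38 ± 0.17 (SE, limma adjusted p = 0.279). This difference was 0.05 with equal FPKM totals and -0.04 with quantile normalization. Gabarapl2 stood at 34.4, 28.8 and 23.9 FPKM in WT libraries, 27.6, 23.5 and 15.2 in MG, and 45.2, 23.4 and 34.0 in MZ, with overlap, and its log2 difference was -0.60 ± 0.30 (SE, limma adjusted p = 0.324). It was -0.37 without MG 3, -0.38 without MZ 1 and -0.18 with equal FPKM totals. For Atg9a the difference was -0.89 ± 0.46 (SE, limma adjusted p = 0.346), and -0.58 with equal FPKM totals.

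Without overlap between MG and MZ were 11 of the 41 members (26.8%), against 25.2% of all tested genes, a share near the background. Of these, 7 were higher in MG (12.8% of all tested genes) and 4 were lower (12.3%). The 7 were Rb1cc1, Vmp1, Atg7, Atg16l1, the Atg4a row, Epg5 and Fundc1, and the 4 were Pik3r4, Atg5, Atg12 and Pink1. Across the alternative fits the differences of Pik3r4 (-0.409 to 0.091), Atg5 (-0.291 to 0.239) and Atg12 (-0.467 to 0.047) took both signs. That of Pink1 stayed negative and those of the 7 stayed positive. Of the 4 with an unadjusted p under 0.05, Rb1cc1, Epg5 and Fundc1 were higher in MG (8.32% of all tested genes) and Atg12 was lower (9.32%).

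The intervals set how far the absence of calls reaches. Of 18 members with a WT mean of at least 20 FPKM, 15 had a 95% interval inside 2-fold in either direction in MG against WT, 15 in MZ against WT and 14 in MG against MZ. Over all 41, the intervals of 21, 21 and 25 members reached 2-fold. A difference of that size lay within or at the edge of what these libraries allow for them. Folds here are those of FPKM + 1. At low levels the added 1 makes them smaller than folds of FPKM, so more members may allow a 2-fold difference in FPKM. For Atg5 the interval of MG against WT ran from -0.35 to 0.36 on the log2 scale and for Uvrag from -0.30 to 0.52. Across the alternative fits the differences themselves ran from -0.087 to 0.434 for Atg5 and from 0.03 to 0.493 for Uvrag.

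A wider list of 52 genes that act in or on autophagy was examined in the same fit, and 41 of them were tested. None passed an adjusted p of 0.05 by limma in any comparison, and 6, 2 and 6 had an unadjusted p under 0.05, in the order used above, against 17.7%, 6.3% and 17.6% of all tested genes. In the authors' deposited table q was under 0.05 for 2, 1 and 3 of the 41, where it was for 4.13%, 0.787% and 9.05% of all tested genes. Many genes of this list at low levels also carry the largest possible q. Medians of the log2 difference were -0.04, -0.16 and -0.11 over the list and 0.04, 0.01 and 0.04 over all tested genes. Of the kinases, Ulk1 stood at 2.94, 3.63 and 2.08 FPKM in WT libraries, 2.12, 5.25 and 3.57 in MG, and 2.13, 2.73 and 2.37 in MZ, with overlap.

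The smallest p below WT in MG was that of Rab7, the GTPase of late endosomes that autophagosome fusion requires, with 1063, 789.5 and 994.7 FPKM in WT libraries, 641.9, 536.9 and 457.6 in MG, and 900.7, 879.8 and 897.4 in MZ. The 3 MG libraries lay below the 6 others, and the log2 difference from WT was -0.80 ± 0.18 (SE, limma adjusted p = 0.0831), with q = 0.024 in the authors' deposited table. Against MZ the difference was -0.72 ± 0.18 (SE, limma adjusted p = 0.0853), with q = 0.00449 in the authors' deposited table. The MG libraries also had the lowest FPKM totals. With equal FPKM totals the median of all tested genes in MG against WT was 0.36. The difference of Rab7 with equal totals is not given here and may move as much. Prkaa2, a catalytic subunit of AMPK, which activates Ulk1, stood at 2.06, 1.76 and 2.34 FPKM in WT libraries, 3.43, 4.50 and 6.97 in MG, and 1.06, 1.19 and 1.05 in MZ. Its groups did not overlap, and the log2 difference was 0.93 ± 0.36 for MG against WT (SE, limma adjusted p = 0.223) and 1.46 ± 0.36 for MG against MZ (SE, limma adjusted p = 0.0844).

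In MZ against WT the smallest p was that of Vamp8, a lysosomal SNARE that pairs with Stx17, at 151.8, 212.4 and 300.6 FPKM in WT libraries, 163.0, 183.2 and 122.2 in MG, and 112.9, 127.5 and 118.7 in MZ. The MZ libraries lay below WT, MG overlapped WT, and MZ differed from WT on the log2 scale by -0.83 ± 0.25 (SE, limma adjusted p = 0.618; q = 0.0209 in the authors' deposited table). Tfe3 stood at 43.1, 19.8 and 19.7 FPKM in WT libraries, 37.0, 28.6 and 29.3 in MG, and 42.8, 45.5 and 43.6 in MZ, where WT 1 reached the MZ values, and its log2 difference of MZ from WT was 0.75 ± 0.29 (SE, limma adjusted p = 0.744). Tfeb had a listed value of 0 in all WT libraries, at 2.11, 0 and 0 FPKM in MG and at 1.06, 0.68 and 0.84 in MZ, and was not tested.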

How the data were processed

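Per the labels' protocols, oocyte RNA was amplified by Smart-seq2 and made into libraries with a NEBNext Ultra kit. Per the series design and the submitters' processing notes, the authors aligned trimmed reads to mm10 with TopHat2 2.0.13, computed FPKM with Cufflinks 2.2.1 and compared groups with Cuffdiff. The deposited table gives FPKM per gene and library and the authors' p-value and q-value per pair of groups; directions here come from FPKM means. The sources used here do not say how strand was treated. Of 24255 rows, 27 with symbols turned into dates were left out. FPKM are not counts, so log2(FPKM + 1) was fitted with limma 3.58.1 in R 4.3.3 (variance trend, 6 residual degrees of freedom), two-sided, for genes of at least 1 FPKM in at least 3 libraries. The steps were tested on simulated data.

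The value of 1 fragment was read from the lowest FPKM of 2220 genes with 1 transcript of at least 1500 bases in GENCODE M21 (GRCm38). Fragment numbers are approximate, since they use the longest transcript, and amplified reads are not independent molecules. By that measure the libraries hold about 584000 (MG 1) to 1047000 (MZ 2) fragments. Members, roles and lists were chosen with earlier results of these data known. Values in every library are given for the 4 members per direction and comparison with the smallest p and the highest WT mean of each role. From the wider list they are given for the smallest p per direction; Ulk1, Tfeb and the genes named only in counts or for their level were chosen after their values were seen. The rows 1700021K19Rik and 5031414D18Rik were matched as Rubcn and Kiaa0226l by RefSeq synonyms (GRCm38.p6). Alternatives covered the pseudocount, filter, scaling, variance model, libraries in the fit, a replicate block and leaving out each library.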

Additional observations from a re-analysis of the deposited data

How the results depend on the processing

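No member passed in any of the 20 alternative fits in any of the 3 comparisons; the smallest adjusted p by limma was 0.0582. The authors' Cuffdiff q gave 2 members in MG against MZ, and 446, 85 and 977 genes in MG with WT, MZ with WT and MG with MZ, where limma gave 37, 4 and 14. Of 473 alternative values of the members named for a small p, 472 kept their direction. That of Atg12 in MG against MZ became 0.047 with scaling to the same FPKM sum. Members named for a small p were picked from the same data. Some other members took both signs, such as Bnip3l in MG against WT (-0.217 to 0.308). Many of the 473 could not differ from the main fit. A difference is unchanged by the variance model, the filter, the replicate block or leaving out libraries of the group not compared.

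Over all genes the count of 37 was 17 without a filter, 66 with the same FPKM sum, 21 with quantile normalization, 5 with only the 2 groups compared, 13 with the replicate block and 3 (without WT 3) to 32 (without MG 1) with a library left out, lower by over 1.5 times for each library but MG 1. The count of 4 was 2 with either pseudocount (0.1 or 0.5) or no filter, 0 with a filter of 5 FPKM, 1 with the same sum, quantile normalization or robust eBayes, 7 without trend, 0 with the block and 0 (without WT 3 or any 1 MZ library) to 6 (without MG 1) with a library left out. The count of 14 was 6 with a pseudocount of 0.1, 9 without a filter or trend, 39 with upper quartile scaling, 31 with the same sum, 73 with 2 groups, 159 with the block and 0 (without any 1 MZ library) to 213 (without WT 1) with a library left out, and 210 without MG 1. The causes were not tested.

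The member median of 0.055 (MG against WT) was 0.005 without a filter, -0.078 with a filter of 5 FPKM, -0.002 with upper quartile scaling, 0.394 with the same sum, where all genes had 0.36, 0.106 with quantile normalization and -0.065 (without WT 2) to 0.059 (without MG 2) with a library left out. That of 0.115 (MZ against WT) was 0.08 with the same sum and 0.001 to 0.117 with a library left out, the lowest without WT 2. That of -0.032 (MG against MZ) was -0.132 with the filter of 5, -0.109 with upper quartile scaling, 0.396 with the same sum, where all genes had 0.39, 0.034 with quantile normalization and -0.116 (without MZ 1) to 0.143 (without MZ 3) with a library left out. Over all tested genes, same-numbered libraries showed little shared deviation (r from -0.07 to 0.073). Such a measure cannot settle whether the numbers pair the libraries, as a shared effect on part of the genes could be missed. With the block 0 members passed in each comparison. Depth limits the members of a few FPKM, which rest on few fragments.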
